A study of Mus musculus with 24 samples.

Results

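The 10 enzymes described here turn acetyl-CoA units into cholesterol: Hmgcs1, Fdps, Fdft1, Sqle, Lss, Cyp51, Msmo1, Nsdhl, Sc5d and Dhcr7, named in the order of the pathway. They were taken by name, and each was read from the transcript cluster (the set of array probes assigned to a locus) whose only gene symbol was that of the enzyme, with the brightest cluster to be used where a gene had several. Each of the 10 had exactly 1 such cluster, and they are 10 of 22180 genes tested.

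RNA came from primary muscle cells of the quadriceps of ICR mice, grown and then differentiated to myotubes, with 1 single-colour array for each of 24 samples. Dams of the control group ate freely, and dams of the undernourished group received 50% of the controls' food from gestational day 12.5 until delivery; all litters were then set to 8 pups. The standard medium was low-glucose DMEM (5.5 mM glucose) with 2% fetal bovine serum, and the limited medium, given overnight, had 1% serum with 0.5 mM carnitine, 1 mM glutamine and 0.5 mM glucose. Control standard, control limited, undernourished standard and undernourished limited had 6 arrays each, and the sources used here do not give the offspring's age or sex, or whether cells of several animals were pooled. Glucose and serum both differed between the media, and glutamine and carnitine are stated for the limited medium alone, so the parts of the components in any difference cannot be told apart. Each diet has 6 culture numbers in the titles, and every number occurs once in each medium. What a number marks (animal, litter or flask) is not stated, and p-values therefore reflect the scatter of these samples, some of it possibly technical.

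Cholesterol is built in the endoplasmic reticulum and cytosol in a long chain of reactions. The first arm makes mevalonate and from it the isoprenoid farnesyl diphosphate, the middle arm joins farnesyl units to squalene and closes it to the first sterol, lanosterol, and the last arm trims and desaturates lanosterol to cholesterol. When membranes are poor in sterol, the transcription factor SREBP-2, the product of Srebf2, is carried to the Golgi, cleaved and sent to the nucleus, where it acts on the promoters of these enzymes together with NF-Y and Sp1. In muscle cells the pathway also supplies farnesyl and geranylgeranyl groups, dolichol and ubiquinone.

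Promoter windows are shown because this family is known for shared promoter elements and because the enzymes differed in how they moved with the medium. RefSeq windows (GRCm38.p6, 250 bases before to 50 after an annotated start, 300 bases each) were matched for 7 of the 10 enzymes, with 3 windows for Dhcr7 and 1 for each of the others. The windows of Fdps, Fdft1 and Sqle were not analysed here. Below are those of Hmgcs1 (chr13:119690101-119690400, plus strand), which opens the chain, of Msmo1 (chr8:64733529-64733828, minus strand) and Nsdhl (chrX:72918271-72918570, plus strand), the enzymes with the lowest adjusted p, and of Dhcr7 (chr7:143829964-143830263, plus strand), whose difference was above 0; of the 3 Dhcr7 windows it is the one that held CCAAT. Each runs 5′ to 3′ along the gene, and capitals mark matches to TCANNCCAC or CCAAT on either strand.
Hmgcs1: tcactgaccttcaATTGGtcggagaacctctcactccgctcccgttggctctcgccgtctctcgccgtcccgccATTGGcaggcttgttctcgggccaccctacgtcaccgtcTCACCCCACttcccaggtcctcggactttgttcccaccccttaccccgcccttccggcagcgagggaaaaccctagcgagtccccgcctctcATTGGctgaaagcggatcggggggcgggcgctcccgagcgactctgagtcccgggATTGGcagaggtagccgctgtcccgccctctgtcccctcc
Msmo1: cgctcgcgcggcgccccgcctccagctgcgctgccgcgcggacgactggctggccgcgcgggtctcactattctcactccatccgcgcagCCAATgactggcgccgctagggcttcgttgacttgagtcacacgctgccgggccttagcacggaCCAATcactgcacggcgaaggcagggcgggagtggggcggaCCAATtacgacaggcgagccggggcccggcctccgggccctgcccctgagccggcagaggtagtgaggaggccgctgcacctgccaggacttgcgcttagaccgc
Nsdhl: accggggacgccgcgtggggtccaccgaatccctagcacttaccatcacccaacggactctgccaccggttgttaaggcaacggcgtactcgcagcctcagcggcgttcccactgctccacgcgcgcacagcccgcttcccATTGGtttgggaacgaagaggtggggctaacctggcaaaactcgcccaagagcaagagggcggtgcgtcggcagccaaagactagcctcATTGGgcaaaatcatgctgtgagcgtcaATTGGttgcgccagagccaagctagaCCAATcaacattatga
Dhcr7: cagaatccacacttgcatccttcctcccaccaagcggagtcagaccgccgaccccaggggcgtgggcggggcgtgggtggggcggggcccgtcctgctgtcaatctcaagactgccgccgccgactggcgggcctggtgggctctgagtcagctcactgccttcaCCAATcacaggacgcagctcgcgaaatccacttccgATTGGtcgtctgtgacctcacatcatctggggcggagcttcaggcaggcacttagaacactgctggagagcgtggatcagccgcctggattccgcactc
The sterol regulatory element pattern TCACNCCAC was found on either strand in the Hmgcs1 window, where it begins at position -137 from the annotated start, and in none of the other 6 enzymes with windows; 1.44% of all 27025 genes in the table held it. The looser TCANNCCAC, which covers the first pattern, gave the same result and was held by 4.78% of genes. CCAAT, the letters NF-Y reads, was held by 7 of 7 enzymes and by 41.1% of genes, and GGGCGG, the GC box that Sp1 reads, by 7 of 7 and by 38.2% of genes. Hmgcs1 and Nsdhl had 4 matches to CCAAT each and Msmo1 had 3. These are matches of letters in short windows, not measured binding sites, and the arrays say nothing on binding.

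In limited medium, 6 of the 10 enzymes were lower than in standard medium over both maternal diets, and 0 were higher. The 6 were Hmgcs1, Sqle, Cyp51, Msmo1, Nsdhl and Sc5d, with log2 differences from -0.45 for Sc5d to -0.91 for Nsdhl. They include the first enzyme of the set and the 3 of this set that act in removing methyl groups from lanosterol. Fdps and Dhcr7, which make farnesyl diphosphate and cholesterol itself, had differences of -0.10 and 0.18 that did not pass the test. The median of the 10 differences was -0.47, beside 0.01 over all genes tested. Of all 22180 genes, 3.28% were called lower and 3.56% higher in this comparison. The enzymes were chosen with earlier results of these data known, so the count beside these shares is a description. The tests were limma's, two-sided, on the log2 signal of all 24 arrays, with Benjamini-Hochberg adjustment over all genes and a threshold of 0.05. Probes differ in brightness, so levels are not compared between genes, and in bulk RNA fewer expressing cells and less RNA per cell cannot be told apart.

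**Figure D1:**
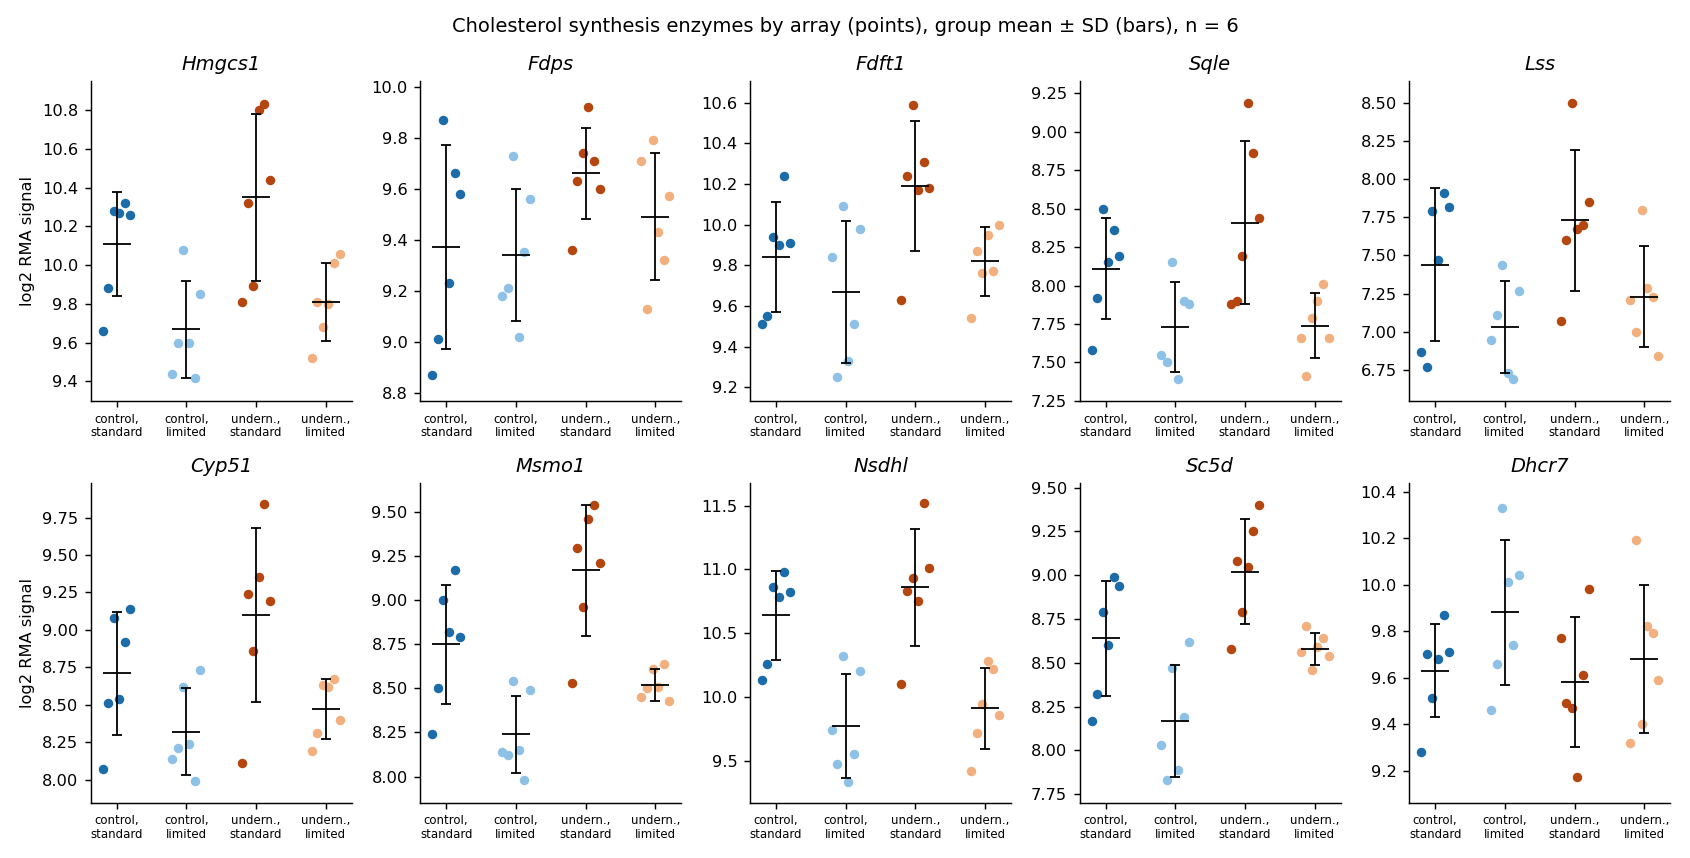
Log2 RMA signal (vertical axis, a separate scale for each enzyme that does not start at 0) of the 10 enzymes on each array of the 4 groups of maternal diet and medium; points are arrays, long bars group means and short bars 1 SD (n = 6). For Nsdhl the limited arrays lie from 9.33 to 10.32 and the standard arrays from 10.10 to 11.52, and for Dhcr7 the limited arrays reach 10.33 while the standard arrays end at 9.98.

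The first arm of the pathway is represented by Hmgcs1 and Fdps. Hmgcs1 (chromosome 13, 119690351 to 119708260) encodes the cytosolic synthase that joins acetyl-CoA to acetoacetyl-CoA. In control cultures its log2 signal ran from 9.66 to 10.32 in standard medium (median 10.26) and from 9.42 to 10.08 in limited medium (median 9.60). In undernourished cultures it ran from 9.81 to 10.83 (median 10.38) and from 9.52 to 10.06 (median 9.80). The ranges overlapped in both diets, with the standard arrays of cultures 5 and 24 and of cultures 9 and 4 reaching down among the limited arrays. Over both diets Hmgcs1 fell by 0.49 ± 0.12 on the log2 scale (SE, limma adjusted p = 0.0104), a 1.41-fold difference. Fdps (chromosome 3, 89093588 to 89101967), the synthase of farnesyl diphosphate, the branch point to sterols and prenyl groups, ranged from 8.87 to 9.92 over the 12 standard arrays and from 9.02 to 9.79 over the 12 limited ones. No limited array of Fdps lay below all standard arrays. Its difference was -0.10 ± 0.11 (adjusted p = 0.674), with a 95% interval from -0.32 to 0.13.

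The middle arm runs from farnesyl diphosphate to lanosterol. Fdft1 (chromosome 14, 63145150 to 63181687), squalene synthase, ran from 9.51 to 10.59 over all standard arrays and from 9.25 to 10.09 over all limited arrays. The control ranges of Fdft1 overlapped over most of their length, while 5 of 6 undernourished standard arrays lay above all undernourished limited arrays. Its difference over both diets was -0.27 ± 0.11 and did not pass the test (limma adjusted p = 0.148). Lss (chromosome 10, 76531565 to 76557139), the cyclase that closes epoxidised squalene to lanosterol, had a difference of -0.45 ± 0.15 (adjusted p = 0.0747), close to that of Sc5d but with a wider error. Lss passed the threshold without control culture 24 or without undernourished culture 9, with differences of -0.53 and -0.52. These were the only 2 culture numbers whose omission did so. With no culture left out, Lss passed with the culture number as a replicate block (-0.45 ± 0.12, limma adjusted p = 0.0171). It also passed with array weights and among genes no dimmer than the median gene.

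Sqle (chromosome 15, 59315092 to 59331193) encodes squalene epoxidase, which adds the oxygen that later becomes the sterol hydroxyl group. Its control arrays ran from 7.58 to 8.50 in standard medium (median 8.17) and from 7.39 to 8.15 in limited medium (median 7.71). The undernourished arrays ran from 7.88 to 9.19 (median 8.31) and from 7.41 to 8.01 (median 7.73). The 3 highest of all arrays were the undernourished standard arrays of cultures 20, 1 and the control standard array of culture 16, at 9.19, 8.86 and 8.50, and the groups overlapped in both diets. Sqle fell by 0.53 ± 0.14 (limma adjusted p = 0.0175), a 1.44-fold difference. In undernourished cultures alone it differed by -0.67 ± 0.19, which did not pass (adjusted p = 0.0809).

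Cyp51, Msmo1 and Nsdhl remove the extra methyl groups of lanosterol: Cyp51 is the lanosterol demethylase of the cytochrome P450 family, Msmo1 the methylsterol monooxygenase, and Nsdhl the dehydrogenase that takes off the carboxyl group Msmo1 leaves. Cyp51 (chromosome 5, 4080674 to 4104697) ran from 8.07 to 9.14 in control standard arrays (median 8.73) and from 7.99 to 8.73 in control limited arrays (median 8.23). In undernourished cultures it ran from 8.11 to 9.84 (median 9.21) and from 8.19 to 8.67 (median 8.51). The standard array of culture 9, at 8.11, lay below every undernourished limited array, and the other 5 standard arrays lay above all of them. Cyp51 fell by 0.51 ± 0.15 over both diets (limma adjusted p = 0.0367). This was the least firm of the 6 calls: with any culture number left out other than 5 or 9, the adjusted p no longer passed. It reached at most 0.102 over all alternatives, while the difference stayed between -0.58 and -0.46. Cyp51 passed under 10 of 22 alternatives. With the culture number as a replicate block, one of these, its difference was -0.51 ± 0.10 (limma adjusted p = 0.00312).

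Msmo1 (chromosome 8, 64718123 to 64733578) separated the media more clearly. Its control arrays ran from 8.24 to 9.17 in standard medium (median 8.81) and from 7.98 to 8.54 in limited medium (median 8.14). Its undernourished arrays ran from 8.53 to 9.54 (median 9.26) and from 8.43 to 8.64 (median 8.50). Apart from the standard array of culture 9, every undernourished standard array lay above all undernourished limited arrays, and the limited arrays of that diet had an SD of only 0.09 against 0.37 in standard medium. The fall was 0.58 ± 0.11 over both diets (limma adjusted p = 0.00179).

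Nsdhl (chromosome X, 72918521 to 72958528) had the largest difference of the 10. Control arrays ran from 10.13 to 10.98 in standard medium (median 10.80) and from 9.33 to 10.32 in limited medium (median 9.65). Undernourished arrays ran from 10.10 to 11.52 (median 10.88) and from 9.42 to 10.28 (median 9.90). Of the 12 limited arrays, 8 lay below all 12 standard arrays; the overlap came from the limited arrays of cultures 16, 10, 20 and 1 and the standard arrays of cultures 5, 24 and 9. Nsdhl fell by 0.91 ± 0.15 (limma adjusted p = 0.00052), a 1.88-fold difference with a 95% interval from -1.21 to -0.61 on the log2 scale.

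Sc5d and Dhcr7 act at the end of the chain, Sc5d as the desaturase that makes the direct precursor of cholesterol in this branch and Dhcr7 as the reductase that makes cholesterol from it. Sc5d (chromosome 9, 42251592 to 42264300) ran from 8.17 to 8.99 in control standard arrays (median 8.69) and from 7.83 to 8.62 in control limited arrays (median 8.11). In undernourished cultures it ran from 8.58 to 9.40 (median 9.06) and from 8.46 to 8.71 (median 8.57). As with Msmo1, the standard array of culture 9 was the only one of that diet that lay among the limited arrays. Sc5d fell by 0.45 ± 0.11 (limma adjusted p = 0.0105), a 1.37-fold difference.

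Dhcr7 (chromosome 7, 143823167 to 143848410) ran the other way in its point estimate. Control arrays ran from 9.28 to 9.87 in standard medium (median 9.69) and from 9.46 to 10.33 in limited medium (median 9.88), and undernourished arrays from 9.17 to 9.98 (median 9.55) and from 9.32 to 10.19 (median 9.69). On the other side, 4 limited arrays, those of cultures 16, 10, 15 and 8, lay above all 12 standard arrays, and none lay below them. The difference was 0.18 ± 0.11 (limma adjusted p = 0.379), and its 95% interval from -0.05 to 0.40 excludes a fall of the size estimated for any of the 6 called enzymes. In undernourished cultures alone the difference was 0.10 ± 0.15, and it was -0.01 without culture 8 or without culture 20.

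**Figure D2:**
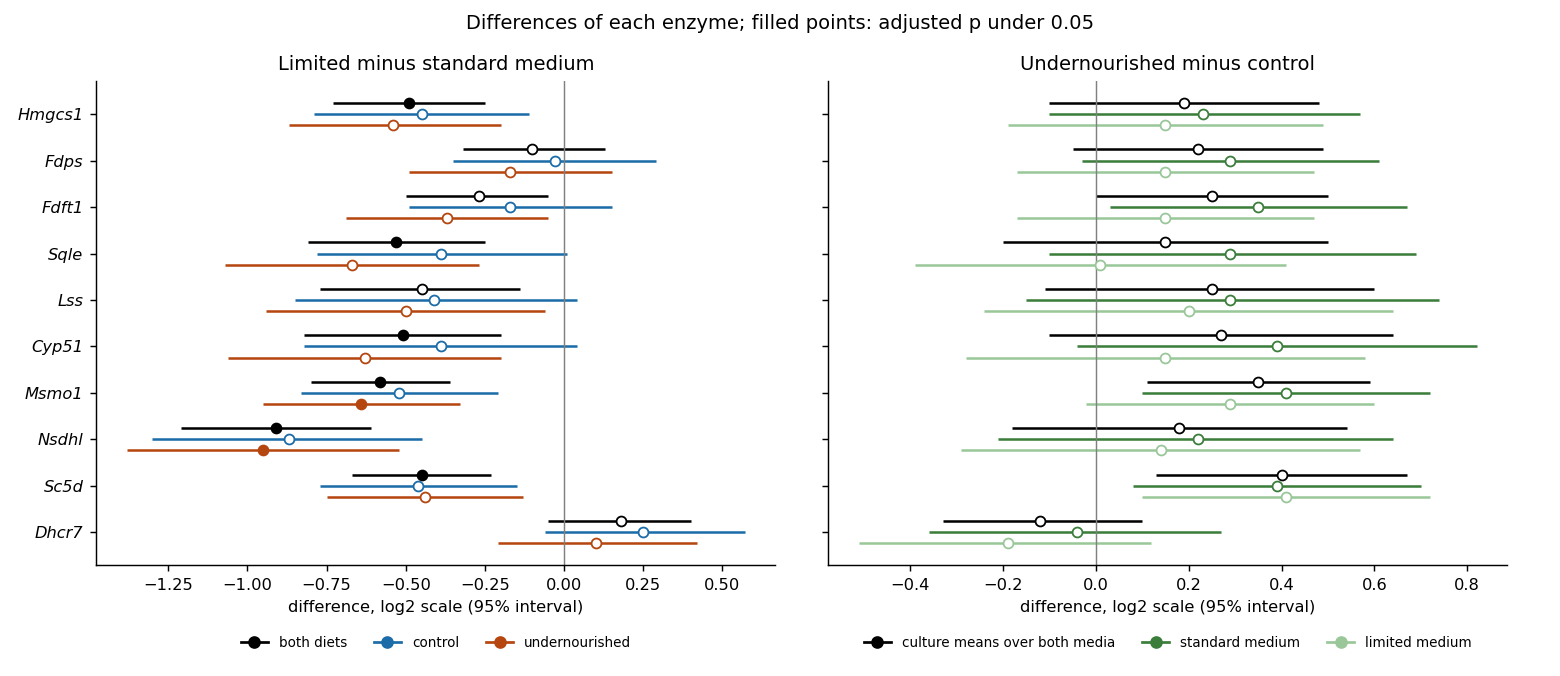
Left, limited minus standard medium for each enzyme over both diets and in each diet; right, undernourished minus control over culture means and in each medium (log2 scale, points with 95% intervals, filled where the adjusted p was under 0.05). Nsdhl lies furthest to the left at -0.91 over both diets, and no point on the right is filled.

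Within each maternal diet the errors were wider and fewer enzymes passed. In control cultures 0 of the 10 enzymes passed the threshold in the fit without a culture term, where 0.176% of all genes were called lower; at an unadjusted p under 0.05 it was 4 of 10 (Hmgcs1, Msmo1, Nsdhl and Sc5d), beside 5.78% of all genes. The nearest was Nsdhl, at -0.87 ± 0.21 (limma adjusted p = 0.0552). With the culture number as a replicate block, the same 4 enzymes were called lower in control cultures, with limma adjusted p values of 0.0446 for Hmgcs1, 0.0454 for Msmo1, 0.00634 for Nsdhl and 0.0312 for Sc5d. In undernourished cultures 2 of 10 were called lower, beside 0.735% of all genes: Msmo1 at -0.64 ± 0.15 (limma adjusted p = 0.0314) and Nsdhl at -0.95 ± 0.21 (adjusted p = 0.0198). This count fell to 0 when culture 8, 4, 1 or 12 was left out and to 1 without culture 20. At an unadjusted p under 0.05 it was 8 of 10, all but Fdps and Dhcr7, beside 6.69% of all genes. The replicate block called 6 of 10 lower in undernourished cultures: Hmgcs1, Sqle, Cyp51, Msmo1, Nsdhl and Sc5d. Their limma adjusted p values ran from 0.00184 for Nsdhl to 0.0227 for Sc5d. Of all genes, the block fit called 231 lower in control and 549 lower in undernourished cultures. The 2 arrays of cultures 9 and 12 did not deviate together, however (r of -0.05 and 0.018). Medians of the 10 differences were -0.40 in control and -0.52 in undernourished cultures.

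The medium effect was not shown to differ between diets for any enzyme. The test of the difference itself called 0 of 10, as it called 0% of all genes, and 0 of 10 had an unadjusted p under 0.05 in it, beside 2.9% of all genes in either direction. Estimates of undernourished minus control ran from -0.28 for Sqle to 0.02 for Sc5d, and their 95% intervals reached from -0.85 to 0.53. Each interval holds the differences between diets that are compatible with the data for that enzyme, in the fit without a culture term. The SE ran from 0.21 to 0.30 over the 10 enzymes in that fit. With the culture number as a replicate block it ran from 0.15 to 0.23, and again 0 of 10 were called.

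Set out by culture number, the medium differences varied between cultures. Hmgcs1, Sqle, Msmo1, Nsdhl and Sc5d were lower on the limited than on the standard array in 12 of 12 numbers, which holds for 1.24% of all genes. Cyp51 was lower in 10, Fdft1 and Lss in 9, Fdps in 8 and Dhcr7 in 5. For Fdft1 these were 6 of 6 undernourished but 3 of 6 control numbers. Nsdhl had the lowest difference of the 10 in every number but 20, where Sqle was lowest at -1.29.

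The median over the 10 enzymes was most negative in control cultures 11 (-0.85) and 15 (-0.68) and in undernourished cultures 12 (-0.78) and 1 (-0.71). It was near 0 in culture 5 (0.02) and culture 9 (-0.08), while the median of all genes lay between -0.02 and 0.03 in every number. In culture 5, Nsdhl differed by -0.39 and 5 of the 10 enzymes were not lower, and in culture 9 Nsdhl differed by -0.68 with the other 9 between -0.44 and 0.34. The 2 arrays of culture 9 did not deviate together (r = -0.05). Their fibroblast marker means were 6.49 in standard and 5.31 in limited medium. Cultures 5 and 9 also had the lowest standard arrays of their diets. Each difference subtracts that same standard array, so this is not a separate observation. The mean of the 10 enzymes on it was 8.64 in culture 5 and 8.88 in culture 9, against 8.84 to 9.44 and 9.36 to 9.72 in the other cultures of each diet. In limited medium the means of cultures 5 and 9 were 8.65 and 8.76. Limited arrays of the other cultures had means from 8.57 to 9.18 in control and from 8.86 to 9.03 in undernourished cultures. The enzymes thus varied more among standard than among limited arrays: the SD over 12 arrays was larger in standard medium for 9 of 10 (0.52 against 0.25 for Cyp51), all but Dhcr7 (0.23 against 0.32), beside 54.6% of all genes.

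**Figure D3:**
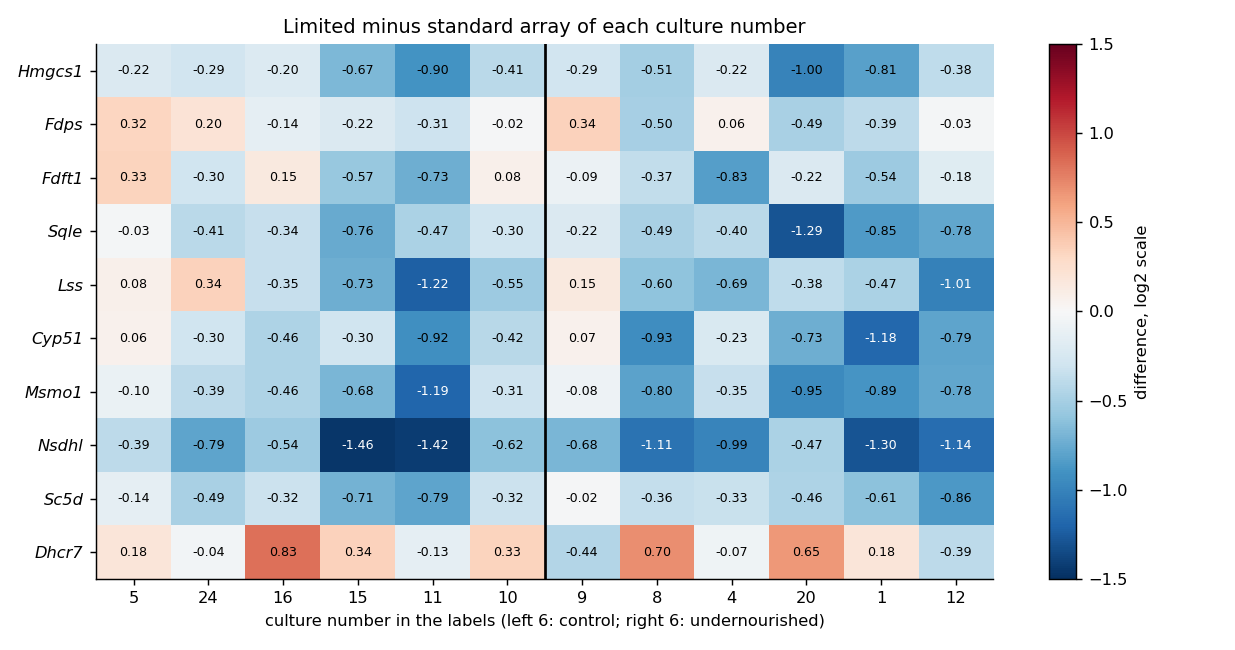
Limited minus standard array of each culture number (columns, 6 control then 6 undernourished) for each enzyme (rows), on the log2 scale, with blue for lower in limited medium. The Nsdhl row is the darkest, reaching -1.46 in culture 15, while the columns of cultures 5 and 9 are pale and the Dhcr7 row mixes red and blue.

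Maternal diet moved none of the 10 enzymes past the threshold. Over culture means 0 of 10 were called, as were 0% of all genes, and the same counts held in standard and in limited medium (0% of all genes in each). The estimates of 9 of 10 enzymes, all but Dhcr7, were above 0 in each of these comparisons. Of all genes, 47.0% were below 0 over culture means, 46.8% in standard and 49.1% in limited medium. The comparisons share arrays, and the enzymes varied together. Medians of the 10 estimates were 0.23 over culture means, 0.29 in standard and 0.15 in limited medium, beside 0.01, 0.01 and 0.00 over all genes. These medians became 0.36, 0.44 and 0.31 with the second number of the titles as a covariate. With culture numbers left out in turn, the median ran from 0.17 (without 5) to 0.31 (without 9) over culture means. It ran from 0.19 (without 5) to 0.41 (without 9) in standard medium. In limited medium it ran from 0.11 (without 11 or 15) to 0.23 (without 16). At an unadjusted p under 0.05 the enzymes higher in undernourished cultures were Msmo1 (0.35 ± 0.11) and Sc5d (0.40 ± 0.13) over culture means, beside 1.82% of all genes higher. In standard medium they were Fdft1 (0.35), Msmo1 (0.41) and Sc5d (0.39), beside 1.78% of all genes. In limited medium it was Sc5d alone (0.41), beside 2.78%. The limited arrays of Sc5d ran from 7.83 to 8.62 in control and from 8.46 to 8.71 in undernourished cultures, overlapping through control cultures 16 and 10. Intervals for the diet effect over both media reached from -0.33 to 0.67 over the 10 enzymes.

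The rest of the pathway did not move as one. Of 12 other enzymes and helpers of cholesterol synthesis on a list drawn up for this report, 8 were measured under a single symbol, and the others were not analysed here. In limited medium 2 of the 8 rose and 1 fell, with a median difference of -0.08. Ebp, the sterol isomerase that acts just before Sc5d, rose by 0.58 ± 0.16 (limma adjusted p = 0.0227, higher in 12 of 12 culture numbers), and Mvd, which makes isopentenyl diphosphate in the first arm, rose by 0.29 ± 0.08 (adjusted p = 0.0275). Erg28, known in yeast as the scaffold of the complex that takes off methyl groups, fell by 0.44 ± 0.08 (adjusted p = 0.00137). The call of Ebp was lost without culture 15 or without culture 4, and that of Mvd without any of cultures 5, 24, 10, 9, 4 and 1. None of 8 measured genes of the isoprenoid branches, which use farnesyl diphosphate and related units for prenylation, dolichol and ubiquinone, passed (median 0.04; 2 at an unadjusted p under 0.05).

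Among genes that sense sterols and control the pathway, 3 of 9 measured were lower, 0 higher, and the median was 0.02. Srebf2, the gene of SREBP-2, ran lower in limited medium in 12 of 12 culture numbers and fell by 0.36 ± 0.08 (limma adjusted p = 0.0053). Insig1, a target of SREBP that holds its escort in the endoplasmic reticulum, fell by 0.41 ± 0.13 (adjusted p = 0.0471), and Mbtps1, the Golgi protease that makes the first cut in SREBP, by 0.24 ± 0.07 (adjusted p = 0.0318). Insig1 and Mbtps1 stood near the threshold: Insig1 no longer passed with any of 10 culture numbers left out (all but 24 and 9), with each array centred on its median or with all clusters tested, and Mbtps1 with any of cultures 5, 11, 10, 4, 1 and 12. Of 10 measured genes of sterol uptake, transport and efflux, 1 was lower, the sterol carrier Stard4, which fell by 0.39 ± 0.11 (adjusted p = 0.0267) and no longer passed without culture 11, 10, 8, 4 or 12 or with the arrays quantile normalised again.

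Fatty acid synthesis, whose genes respond to the related factor SREBP-1, had 5 of 11 measured genes lower and 0 higher, with a median of -0.33. They were the elongases Elovl6 (-1.05 ± 0.19) and Elovl5 (-0.37 ± 0.09), the desaturases Fads2 (-0.63 ± 0.16) and Fads1 (-0.54 ± 0.13), and Acly (-0.33 ± 0.08), which makes the cytosolic acetyl-CoA that both pathways use. Their limma adjusted p values were 0.00161, 0.00904, 0.0133, 0.0134 and 0.0114 in that order.

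**Figure D4:**
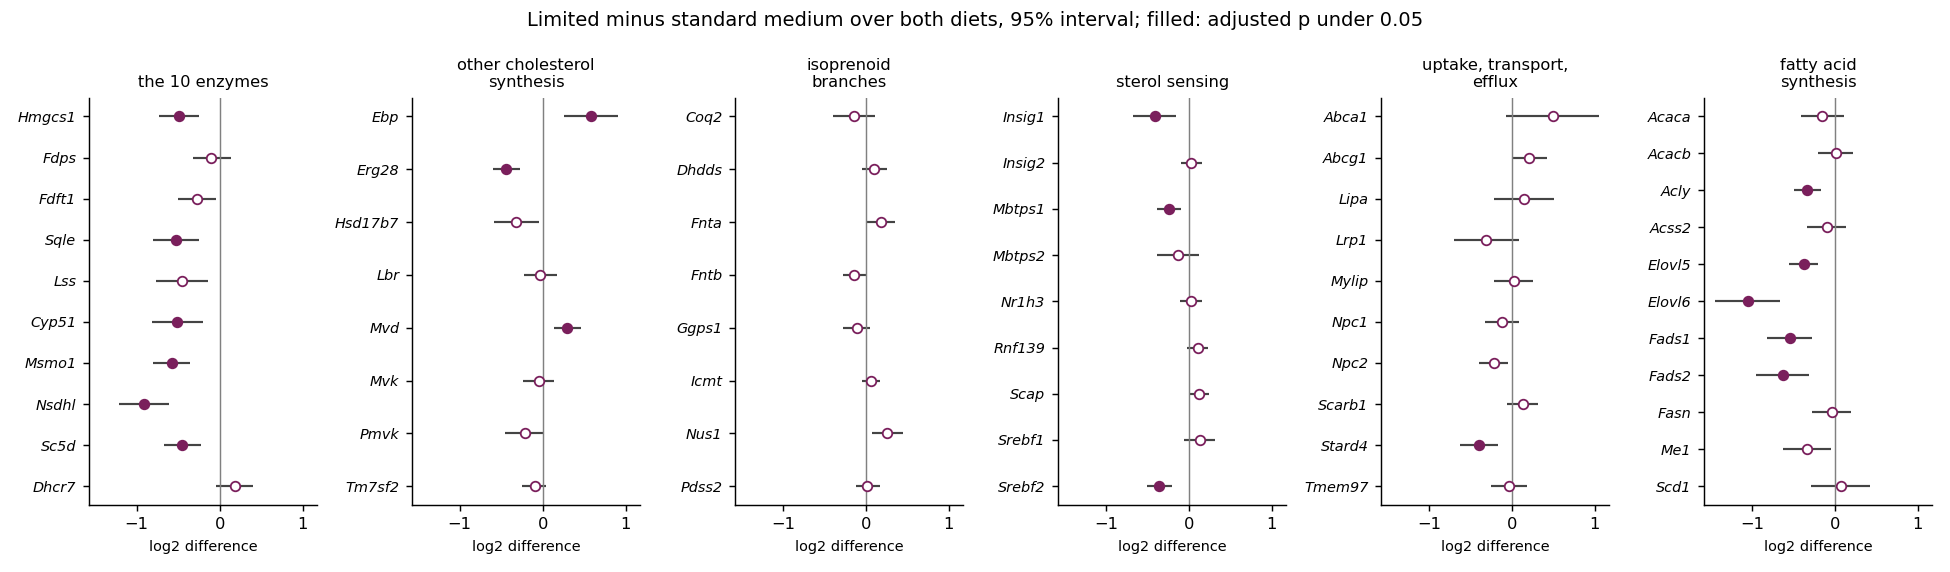
Limited minus standard medium over both diets (log2 scale, points with 95% intervals, filled where the adjusted p was under 0.05) for the 10 enzymes and for the measured genes of the 5 other pathway lists; the cell type markers are not plotted. Filled points lie left of 0 except those of Ebp (0.58) and Mvd (0.29).

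Apart from Dhcr7, the enzymes rose and fell together from array to array. After the mean of its group was taken from each array, Pearson's r between an enzyme and the mean of the other 9 over the 24 arrays was highest for Msmo1 (0.91), Nsdhl (0.89) and Cyp51 (0.86), was 0.64 for Lss and was 0.22 for Dhcr7. Without the 2 arrays farthest from the median of the mean of the 10, r was 0.84 for Msmo1, 0.86 for Nsdhl and 0.78 for Cyp51. It was then 0.60 for Fdps, 0.48 for Lss and 0.25 for Dhcr7. The 99th percentile of all genes with the mean of the 10 was then 0.53. Among all 45 pairs the median r was 0.62; the 36 pairs without Dhcr7 had a median of 0.68 (0.31 to 0.90) and the 9 with it a median of 0.20 (-0.09 to 0.47). These values are descriptions: the enzymes share arrays, normalisation and culture numbers. Ebp and Mvd, which rose with the medium, had r of 0.44 and 0.62 with the mean of the 10 in the same deviations.

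Outside the sterol lists, the genes whose log2 signal over the 24 arrays was most like the mean of the 10 enzymes were Acly (r = 0.88), Lactb2 (0.85), Crlf3 (0.82), Tmed8 (0.81), Zfp248 (0.81), Ap3m1 (0.80), Gmfb (0.80) and Mccc1 (0.80). The 99th percentile of all genes was 0.62. Without the 2 arrays farthest from the median of that mean, the 8 values were 0.71 to 0.84 and the percentile 0.61. In deviations from the group means the 8 most alike were Crlf3 (0.83), Rmdn3 (0.80), Glyr1 (0.79), Acly (0.78), Psat1 (0.74), Mccc1 (0.74), Mdm1 (0.73) and Lactb2 (0.73), with a 99th percentile of 0.57. Without the 2 farthest arrays these were 0.55 (Psat1 and Lactb2) to 0.81 (Crlf3), with Mccc1 at 0.59, and the percentile was 0.53. Acly, Crlf3, Lactb2 and Mccc1 are on both. For comparison within the sterol lists, Stard4 had r of 0.88 and Insig1 of 0.84 over the arrays. Srebf2 had r of 0.72, Erg28 of 0.62, Mvd of -0.03 and Ebp of -0.06.

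All arrays carried strong signals of the muscle markers that the labelled cell type calls for, and fibroblast or glial markers were highest in 2 culture numbers. The mean of 12 myotube markers lay between 12.09 and 12.42 on every array, and 1 of the 12, the muscle creatine kinase Ckm, was higher in limited medium (0.47 ± 0.12, limma adjusted p = 0.017), a call that was lost without culture 4. None of the markers of myoblasts (5), fibroblasts (8), glia (5), endothelium (5), leukocytes (5), adipocytes (5) or smooth muscle (5) passed in the medium comparison; at an unadjusted p under 0.05 it was 1 each of the myoblast and smooth muscle markers and 0 of the others. The fibroblast mean ran from 5.31 to 8.46 and was highest in cultures 16 (7.85 and 8.46) and 20 (8.14 and 8.27), and the glial mean ran from 5.18 to 8.11 and was highest in culture 20 (8.04 and 8.11). Culture 24 had fibroblast means of 6.87 and 6.77 and glial means of 6.14 and 6.32. On all arrays the myoblast mean lay between 9.29 and 10.00 and the smooth muscle mean between 7.22 and 7.63. Levels are not compared between lists. With both arrays of cultures 16 and 20 left out, 5 of the 10 enzymes were lower over both diets, Cyp51 being the one lost, and 0 and 1 were lower in control and undernourished cultures.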

How the data were processed

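Per the submitters' processing notes, the authors made the deposited values with RMA in Affymetrix Expression Console, and they are read here as log2 signal. The base of the logarithm was taken from their range (1.69 to 14.1; array medians 5.60 to 5.81). Tool versions and the array's genome build were not given in the sources used here. Of 41345 clusters, 23521 had 1 gene symbol; the brightest cluster of each gene left 22180 genes, with no filter on dim ones, and 23328 of those clusters were matched to RefSeq (GRCm38.p6), which gave the printed gene coordinates.

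Genes were fitted with limma 3.58.1 (R 4.3.3; lmFit, eBayes) over 4 groups without a culture term. For maternal diet over both media, the 2 arrays of a culture number were averaged first. Errors of differences are SE. The fit was tested on simulated data with independent noise for each gene and array. Such data share nothing within a culture number, so they do not test the lack of a culture term. Deviations of same-numbered arrays from their group means correlated by 0.193 to 0.463 in all 6 control numbers, which were taken as pairs from these data, and by over 0.1 in only 4 of 6 undernourished numbers. The enzymes, lists, tests and alternatives were chosen with earlier results of these data known. All 10 enzymes are named; of the other lists, up to 5 genes past the threshold, Srebf2 and Insig1, and the 8 most alike genes; some genes that the rule names are not reported here. Alternatives changed the normalization, filter, clusters, weights, variance prior, covariate, threshold, arrays in the fit and culture numbers included.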

Additional observations from a re-analysis of the deposited data

How the results depend on the processing

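Over both diets, Hmgcs1, Sqle, Msmo1, Nsdhl and Sc5d passed under 22 of 22 alternatives, Cyp51 under 10, Lss under 5, and Fdps, Fdft1 and Dhcr7 under 0. The count of enzymes lower in control cultures, 0 as reported, was 1 at an adjusted p under 0.1, 1 among genes no dimmer than the median gene, 1 with array weights, 1 with the title's second number as a covariate, and 0 to 1 with culture numbers left out in turn. In undernourished cultures the count of 2 became 1 with all clusters tested, 5 with that covariate and 0 in a fit of only the groups compared. It was 1 without cultures 16 and 20, and 0 to 2 with culture numbers left out in turn. Some of these fits had fewer arrays or more features, and calls over all genes rose in some fits with fewer arrays. Causes of these changes were not tested. Signs turned only where a difference was near 0. Dhcr7 in undernourished cultures was -0.01 without cultures 16 and 20 and -0.01 to 0.21 with numbers left out in turn, and Fdps in control cultures was -0.10 to 0.03 with numbers left out in turn. No detection calls were used, and precision is limited by having 6 arrays in a group. Over all genes, calls in control cultures, 37 higher and 39 lower, became 159 and 116 with array weights, 16 and 20 with all clusters tested, 89 and 60 among the brighter genes, and 70 and 45 without cultures 16 and 20. In undernourished cultures 161 higher and 163 lower became 261 and 310, 78 and 80, 221 and 250, and 260 and 234 under the same alternatives, and 26 and 33 in a fit of only those groups. With culture numbers left out in turn, calls were 476 to 827 higher and 483 to 776 lower over both diets, 4 to 95 higher and 6 to 67 lower in control and 23 to 235 higher and 28 to 234 lower in undernourished cultures. For maternal diet in limited medium, 0 genes became 1 with array weights and 2 without culture 20 or without cultures 16 and 20, none of them an enzyme described here. Same-numbered arrays deviated together by r of -0.05 to 0.559, over 0.1 in 10 of 12 numbers, and 10 of 12 numbers matched best with themselves. The exceptions to both were undernourished cultures 9 and 12, and the labels do not say what a number marks. The main tests therefore used no culture term. Differences and counts by culture number, given for all 12 numbers, are descriptions. With the culture number as a replicate block, 7 enzymes were lower over both diets (1345 genes higher and 1252 lower, against 790 and 727), 4 in control (320 genes higher and 231 lower) and 6 in undernourished cultures (458 and 549), and 0 differed between diets.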
